A study of Homo sapiens with 9 samples.

Results

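Pericellular proteases and their inhibitors were examined as a set of 35 listed genes on 9 whole-genome arrays of HaCaT cells, a spontaneously immortalized human keratinocyte line. Members were taken by name, as the probe sets annotated to the listed metalloproteinases, plasminogen activators, membrane proteases, cathepsins and inhibitors. Of the 35 genes, 34 had a listed probe set, and SERPINB2, a serpin that inhibits urokinase, was not analysed here. These 34 genes held 77 of the 54613 probe sets other than controls and made up 34 of the 19775 genes measured. By role they were 9 matrix metalloproteinases, 4 metalloproteinase inhibitors, 5 genes of the plasminogen system, 7 ADAM and ADAMTS proteases, 5 membrane serine proteases, furin and Kunitz inhibitors, and 4 cathepsins and cystatins.

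The lines compared were 3, with 3 arrays each. NLS-actin cells stably expressed EGFP-tagged actin carrying a nuclear localization sequence, WT-actin cells stably expressed EGFP-tagged actin without that sequence, and the parental line was untransfected. Both transfected lines were G418-selected, GFP-positive populations, and with 1 line per construct the effect of a construct and any other difference between lines cannot be told apart. The study asked how actin in the nucleus affects keratinocyte gene expression. Arrays of a line are called experimental replicates in the methods, which do not say whether separate cultures were used, so p values measure the spread between these arrays, which may be technical. RNA of a whole culture was measured, so fewer cells that express a gene and less RNA per cell cannot be told apart.

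Keratinocytes cut the matrix around them when they move, and do so at the cell surface. Urokinase (PLAU), held by its receptor PLAUR, turns plasminogen into plasmin, which cuts matrix and activates pro-metalloproteinases. Secreted metalloproteinases cleave collagens and other matrix proteins, membrane-bound MMP14 activates MMP2 together with TIMP2, and ADAM proteases shed receptors and growth factors. Tissue inhibitors of metalloproteinases, serpins, Kunitz inhibitors and cystatins hold these enzymes in check.

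The promoters of 4 members are shown because their genes return in the results and because AP-1, a transcription factor with a textbook role at metalloproteinase and urokinase receptor genes, has its motif in some of them. Each stretch is read 5′ to 3′ on the gene's strand and ends at the base before the start of transcription, from RefSeq on GRCh38.p14. In MMP10 (chr11:102780629-102780728, minus strand) and MMP7 (chr11:102530748-102530847, minus strand) capitals mark the AP-1 motif TGANTCA and the TATA motif TATAAA. In PLAU (chr10:73911012-73911131, plus strand) and TIMP3 (chr22:32801585-32801704, plus strand) capitals mark the GC box GGGCGG on either strand. PLAU has several listed starts, and the one with the GC boxes is shown.
MMP10: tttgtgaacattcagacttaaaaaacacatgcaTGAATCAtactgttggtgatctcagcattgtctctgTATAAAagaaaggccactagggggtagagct
MMP7: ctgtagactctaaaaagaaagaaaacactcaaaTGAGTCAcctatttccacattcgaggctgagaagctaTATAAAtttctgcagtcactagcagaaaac
PLAU: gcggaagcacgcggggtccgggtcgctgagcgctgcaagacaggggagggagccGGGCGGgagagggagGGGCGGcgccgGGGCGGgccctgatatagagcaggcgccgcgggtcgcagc
TIMP3: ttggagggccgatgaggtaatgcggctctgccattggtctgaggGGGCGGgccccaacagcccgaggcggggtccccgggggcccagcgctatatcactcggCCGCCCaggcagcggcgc

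RefSeq promoters were matched for 19 of the 34 measured members, in windows of 250 bases before the start. Motifs were searched on both strands. The AP-1 motif was present in 4 of these genes (MMP7, MMP10, PLAUR and SERPINB5), or 4 of 25 member windows, against 6.57 percent of all 35116 windows. In both MMP7 and MMP10 its first base lay 67 bases before the start. The TATA motif was present in 3 genes (MMP7, MMP10 and FURIN), or 3 of 25 windows, against 10.7 percent of all windows. The GC box was present in 15 genes, or 17 of 25 windows, against 42.6 percent. The CArG box, the motif bound by serum response factor, was present in 0 of the 19 genes, against 1.16 percent of windows. A match is only a run of letters, not a bound site.

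Signals are MAS5 intensities on a linear scale, whose mean after trimming 2 percent at each end was 500.04 to 500.06 on every array. Median signals of the arrays were 29.67 to 43.26. The keratinocyte genes KRT5, KRT14, SFN and CDH1 lay at or above the 99.1 percentile of mean signal, LAMB3 at 93.1 and ITGB4 at 82.9. The leukocyte gene PTPRC reached at most 18.5 and the fibroblast gene COL1A2 at most 21.6, while COL1A1 ranged from 284 to 1057. COL3A1, another fibroblast gene, reached 193 on WT-actin replicate 1, and the endothelial gene VWF reached 171 on NLS-actin replicate 2. CD14, listed as a leukocyte marker, had signals of 84.9 to 139.7 in NLS-actin, 13.8 to 25.3 in WT-actin and 35.6 to 119 in parental cells, and its part in the results was not tested. Precision is limited by the number of arrays.

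On this scale 3 arrays stood apart in the same direction from the rest of their lines: NLS-actin replicate 2, WT-actin replicate 1 and parental replicate 2. They had the highest log2 ratio of the 3′ to the 5′ ACTB control probe sets in each line (3.68 against 2.8 and 3 in NLS-actin, 3.9 against 2.76 and 1.93 in WT-actin, 2.99 against 2.32 and 2.65 in parental cells), but both transfected lines carry an actin construct. The same ratio of the GAPDH control probe sets was highest on WT-actin replicate 1 (1.62 against 0.6 and 0.47) and lowest on NLS-actin replicate 2 (0.72 against 0.76 and 0.96) and parental replicate 2 (0.49 against 0.68 and 0.5), so that the GAPDH ratio did not set these 3 arrays apart in a common direction. Of the 34 members, 10 had their highest signal on these arrays in all 3 lines, 29.4 percent against 15.5 percent of all genes. These 10 were MMP1, MMP10, MMP13, MMP28, TIMP2, PLAT, TMPRSS4, SPINT1, CTSB and CTSD. Another 5 members, 14.7 percent against 9.2 percent of all genes, had their lowest signal there in all 3 lines, namely PLAUR, SERPINE2, ADAM9, ADAM19 and ADAMTS1. These shares are a description of arrays already known to differ, and the part of the RNA or labelling in them was not tested.

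The largest of these within-line differences reached several fold. PLAT, the tissue plasminogen activator, had signals of 142, 329 and 138 in NLS-actin, 1271, 445 and 104 in WT-actin, and 296, 498 and 106 in parental cells. In each line the highest array was the one that stood apart, and the lines, with means of 203 ± 109, 606 ± 600.1 and 300.3 ± 196 (SD, n = 3 each), overlapped. SERPINE2, a serpin that inhibits urokinase and thrombin, ran the opposite way, with 1379.9, 520.1 and 1214 in NLS-actin, 194, 477 and 2606 in WT-actin, and 847, 420.3 and 1368 in parental cells. On the log2 scale, the 3 arrays deviated from the other arrays of their lines by a mean of 1.76 for PLAT and -1.73 for SERPINE2. The collagenase MMP13 and the stromelysin MMP10 deviated by 1.75 and 1.39, and the ADAMTS1 protease of the matrix proteoglycans by -1.39.

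**Figure D1:**
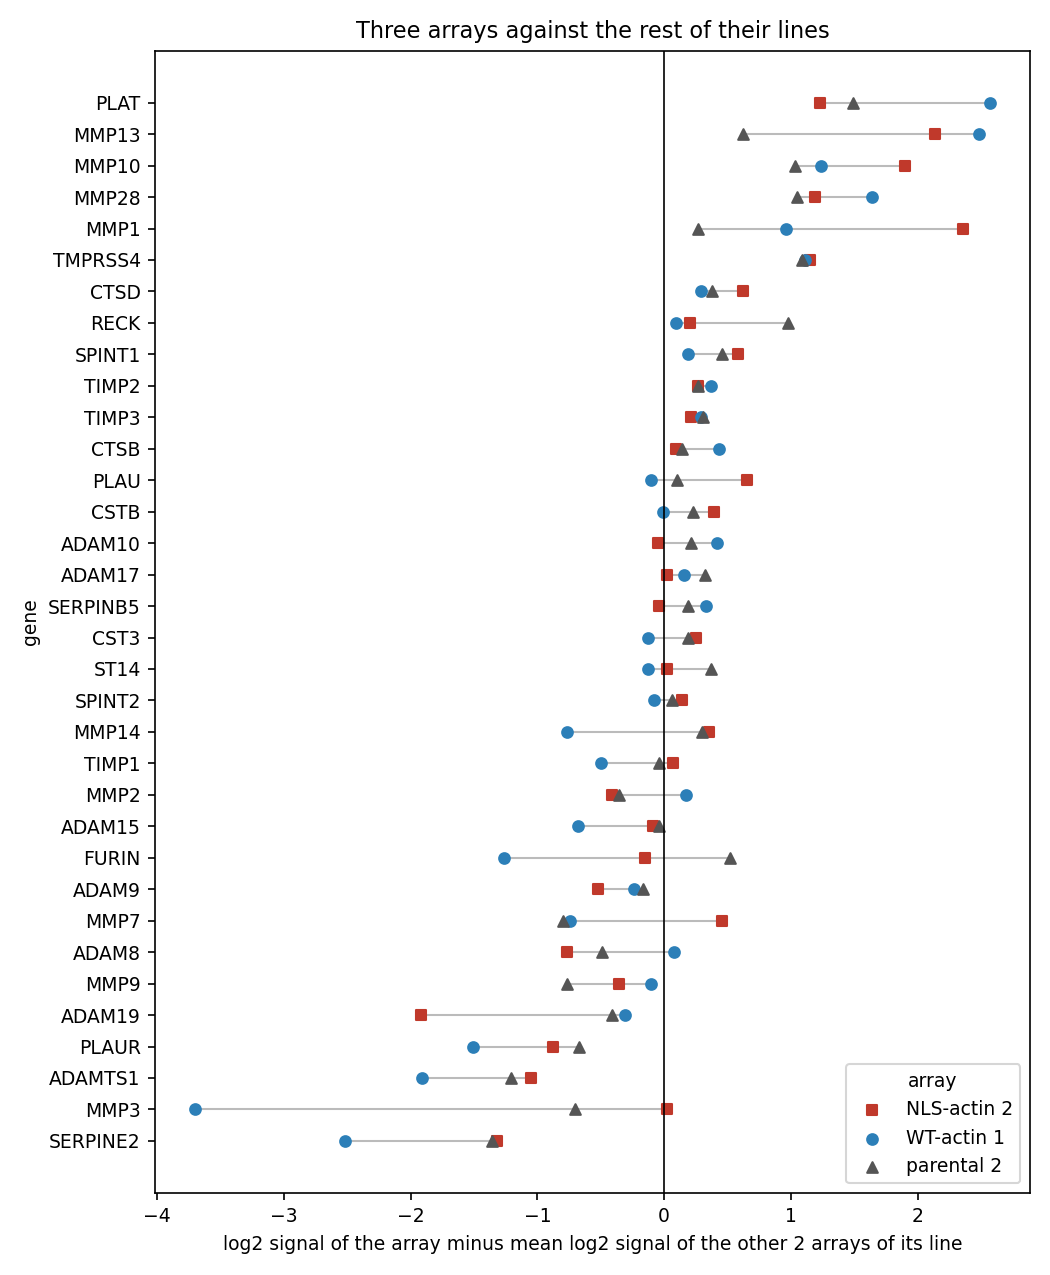
Log2 signal of NLS-actin replicate 2 (squares), WT-actin replicate 1 (circles) and parental replicate 2 (triangles) minus the mean log2 signal of the other 2 arrays of the same line, for each of the 34 members, ordered by the mean of the 3 differences. PLAT, MMP13, MMP10, MMP28, MMP1 and TMPRSS4 lie to the right for all 3 arrays, and SERPINE2, ADAMTS1, PLAUR and ADAM19 to the left.

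In NLS-actin cells, urokinase was lower and TIMP2 higher than in the parental line, and these members had the smallest unadjusted p values of the set. No member reached an adjusted p under 0.05 in limma, 0 of 34 against 0.131 percent of all 19775 genes. At an unadjusted p under 0.05, 2 of 34 members passed (PLAU lower, TIMP2 higher), against 6.44 percent of all genes, a share near the background. At the cut-offs given in the methods, a fold above 2 with an unadjusted p under 0.05, 0 members passed, against 3.17 percent of all genes. Without NLS-actin replicate 2, 2 members (MMP1 and PLAU) passed, against 3.89 percent of all genes. The median log2 fold change was -0.07 over the members and -0.01 over all genes, with 15 members above 0 and 19 below. Signals of the lines did not overlap for 6 members, with TIMP2 and CSTB higher and MMP3, MMP7, TIMP1 and PLAU lower in NLS-actin cells, against 13.9 percent of all genes. With 3 arrays a line, the smallest p that an exact permutation test allows is 0.1.

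Same-number NLS-actin and parental arrays had residual correlations of 0.242, 0.755 and 0.394 for replicates 1, 2 and 3. Exchanging parental replicates 1 and 3 gave 0.493 and 0.329, so the numbers marked a clear pair for replicate 2 alone. Both arrays of that pair are among the 3 that stood apart. With the number as a block within these lines, 3 members passed an adjusted p under 0.05, against 1.91 percent of all genes. These were PLAU (adjusted p = 0.00994), MMP28 (adjusted p = 0.0163) and TIMP2 (adjusted p = 0.0332). Over all alternatives, the adjusted p ran from 0.00803 to 1 for PLAU, from 0.0163 to 1 for MMP28 and from 0.0321 to 1 for TIMP2, where each value of 1 came from Tukey's test of single genes. With the number as a block over all 9 arrays, 0 members passed, against 0.0961 percent of all genes.

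**Figure D2:**
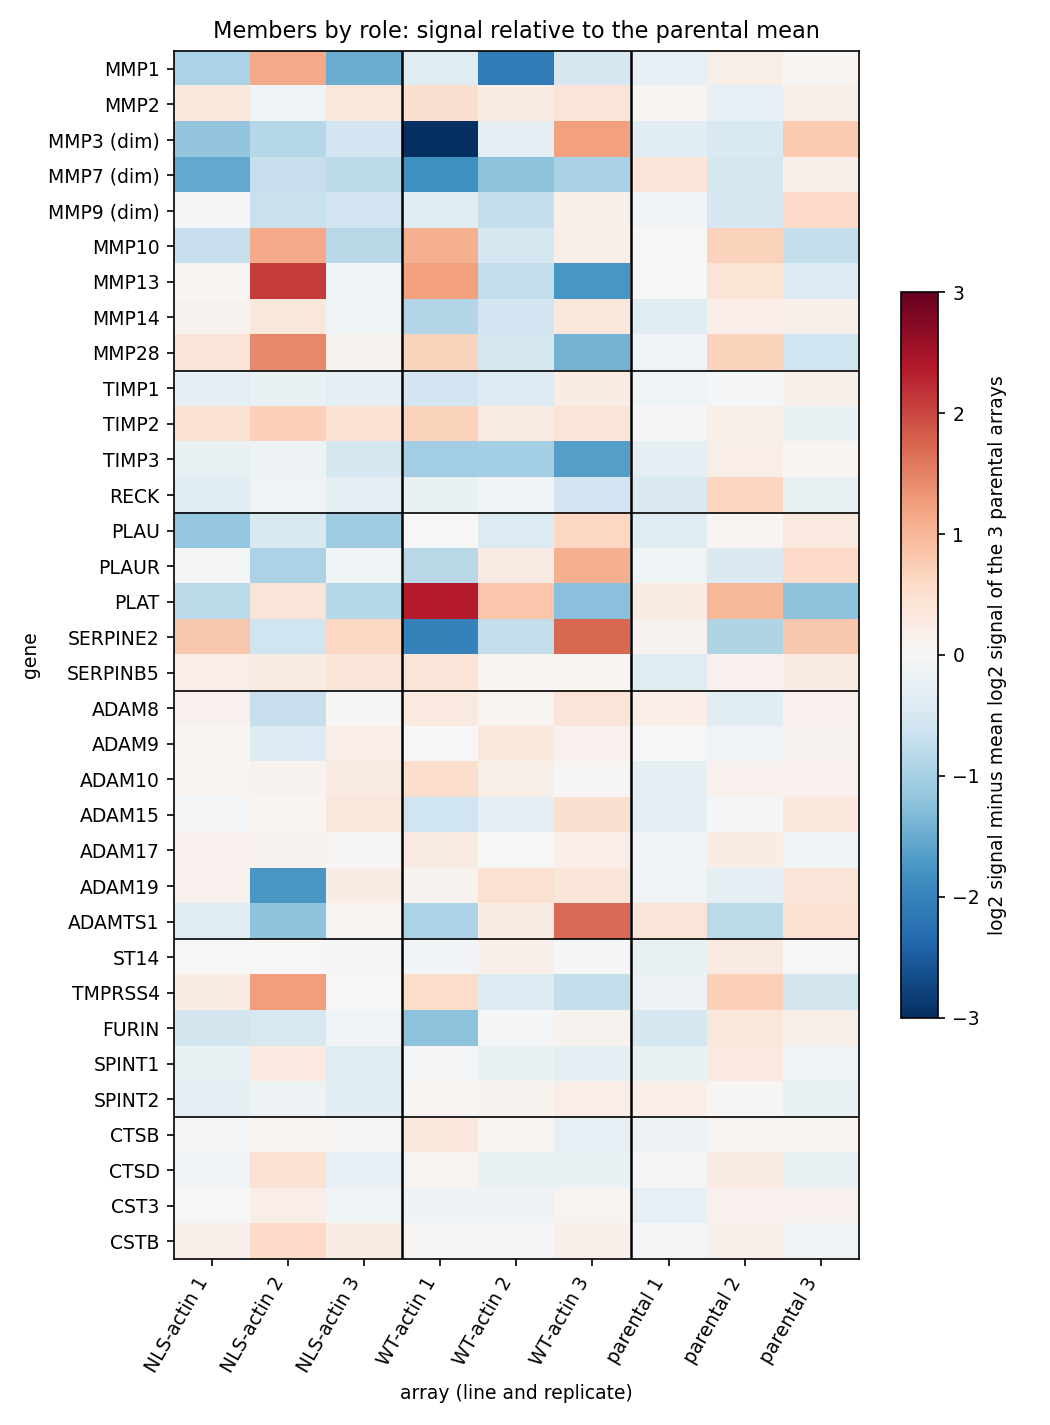
Log2 signal of each member on each array minus its mean log2 signal over the 3 parental arrays (colour scale from -3 in blue to 3 in red, values beyond it drawn at its ends), with arrays in columns from NLS-actin through WT-actin to parental and members in rows by role, separated by lines. TIMP2 is above the parental mean on all NLS-actin and WT-actin arrays, TIMP3 is lowest on the WT-actin arrays, and PLAU is lower on all 3 NLS-actin arrays. Members marked dim lie below the median signal of all probe sets, 36.1.

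Of the plasminogen system, PLAU had signals of 649, 1046 and 689 in NLS-actin, 1458, 1098 and 2219 in WT-actin, and 1132, 1520 and 1787 in parental cells. All 3 NLS-actin arrays lay below every array of the other lines, the highest of them (1046) close to the lowest WT-actin array (1098) and the lowest parental array (1132). PLAU averaged 795 ± 219 in NLS-actin and 1479 ± 329 in parental cells (SD, n = 3 each), which gave -0.91 on the log2 scale with a standard error of 0.27 (adjusted p = 0.413 in limma without the block). Against WT-actin cells, where it averaged 1592 ± 572 (SD, n = 3), the log2 fold change was -0.98 (adjusted p = 0.183). The second PLAU probe set gave log2 fold changes of -0.83 and -0.87 in these comparisons. Without the 3 arrays that stood apart, the values were -1.09 against the parental line and -1.22 against WT-actin cells. Leaving out single arrays gave -1.12 to -0.76 against the parental line and -1.21 to -0.7 against WT-actin cells.

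The other plasminogen system genes overlapped between lines in every comparison. The urokinase receptor PLAUR averaged 479.6 ± 149 in NLS-actin, 764 ± 463 in WT-actin and 621 ± 234 in parental cells (SD, n = 3 each). Its log2 fold change was -0.36 in NLS-actin against parental cells, with a 95 percent interval from -1.31 to 0.58, and 0.16 in WT-actin against parental cells, from -0.78 to 1.11. SERPINB5, the serpin maspin of epithelial cells, averaged 10442 ± 639, 9786 ± 1334 and 8794 ± 1827 in the same order of lines. Its log2 fold changes against the parental line, 0.27 and 0.17, had intervals from -0.09 to 0.62 and from -0.19 to 0.52, within a 2-fold change. For PLAT and SERPINE2 the intervals were wide, from -2.12 to 1.26 and from -1.36 to 1.92 in NLS-actin against parental cells. PLAT moved with the ACTB ratio as a covariate, with log2 fold changes of -1.28 in place of -0.43 in NLS-actin against parental cells and -1.56 in place of -1.06 in NLS-actin against WT-actin cells. SERPINE2 likewise gave 1.18 in place of 0.28 and 1.14 in place of 0.62. None of these 4 values had an adjusted p under 0.05 (0.115 to 0.396).

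Among the metalloproteinase inhibitors, TIMP2 had signals of 3329.7, 3988 and 3278 in NLS-actin, 3952, 2904 and 3198 in WT-actin, and 2489, 2768 and 2121 in parental cells. All 6 arrays of the transfected lines lay above the 3 parental arrays, and the transfected lines overlapped each other. The log2 fold change was 0.53 in NLS-actin against parental cells (standard error 0.16, adjusted p = 0.432 in limma without the block) and 0.44 in WT-actin against parental cells (adjusted p = 0.619). These comparisons share the parental arrays. TIMP2 has 3 probe sets, and the others gave 0.39 and 0.05 in NLS-actin cells and 0.38 and -0.01 in WT-actin cells.

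TIMP3, an inhibitor that binds to the matrix and also blocks several ADAM proteases, was set apart in WT-actin cells by its brightest probe set. Its signals were 336, 351 and 273 in NLS-actin, 189.8, 194 and 125 in WT-actin, and 324, 451 and 407 in parental cells. Every WT-actin array lay below every array of the other lines, and NLS-actin and parental arrays overlapped. WT-actin cells averaged 169.5 ± 38.7 and parental cells 394 ± 64.6 (SD, n = 3 each), or -1.23 as log2 fold change (standard error 0.25, 95 percent interval -1.78 to -0.68, adjusted p = 0.131 in limma). With the ACTB 3′ to 5′ ratio as a covariate, it was -1.30 (adjusted p = 0.0239, with 0.0239 to 0.706 over all alternatives), and without the 3 arrays that stood apart it was -1.22. NLS-actin cells, at 320.3 ± 41.5, were 0.94 higher than WT-actin cells on the log2 scale (adjusted p = 0.167). The other TIMP3 probe sets gave -1.08, -0.61 and, for a dim one, -0.29 in WT-actin against parental cells. In the same order they gave 0.74, 0.3 and 0 in NLS-actin against WT-actin cells, where the mean of all probe sets gave 0.49. The probe set with -0.61 overlapped between all lines, at 139 to 525 in NLS-actin, 139 to 333 in WT-actin and 254 to 387 in parental cells.

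TIMP1 averaged 2286 ± 70.4 in NLS-actin and 2729 ± 273 in parental cells (SD, n = 3 each), with no overlap and a log2 fold change of -0.25 (95 percent interval -0.67 to 0.16, adjusted p = 0.861). RECK, a membrane-anchored inhibitor of metalloproteinases, gave -0.23 in NLS-actin and -0.29 in WT-actin against parental cells on the log2 scale. Over the 4 inhibitors the median log2 fold change was -0.24 in NLS-actin against parental and -0.27 in WT-actin against parental cells, with TIMP2 as the member above 0 in both comparisons.

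**Figure D3:**
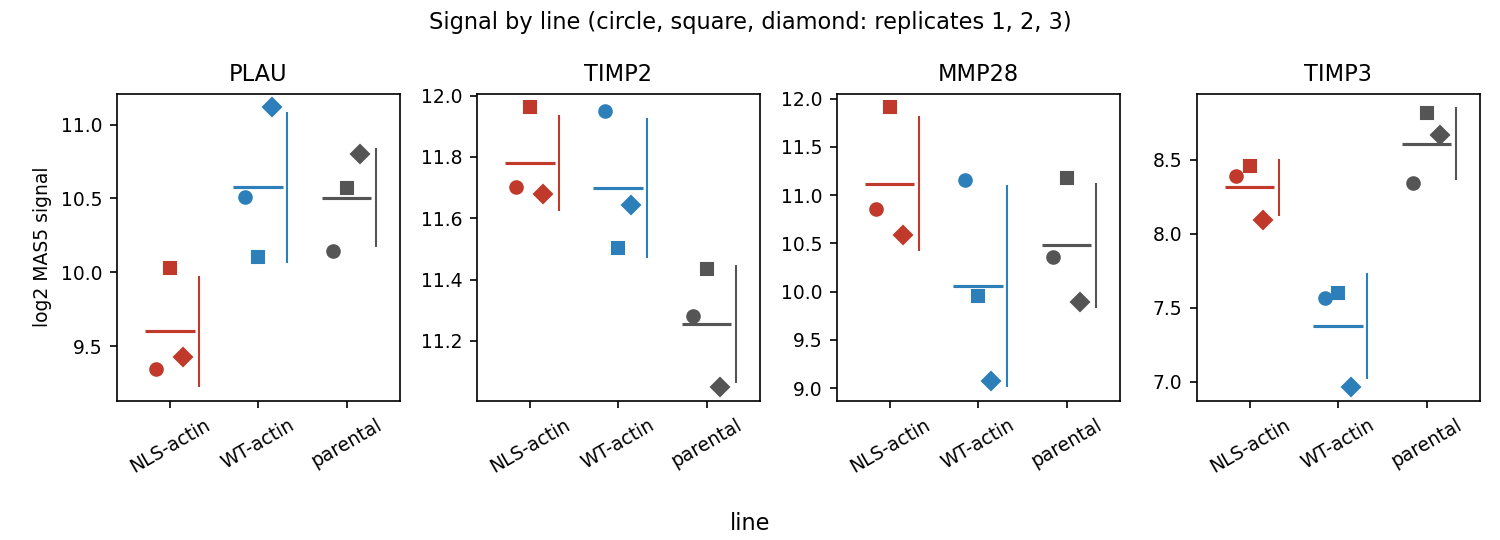
Log2 MAS5 signal of PLAU, TIMP2, MMP28 and TIMP3 in NLS-actin, WT-actin and parental cells, with circles, squares and diamonds for replicates 1, 2 and 3, a horizontal bar for the mean and a vertical bar for ± 1 SD (n = 3 each). PLAU is lowest in NLS-actin cells, TIMP2 is higher in both transfected lines than in the parental line, TIMP3 is lowest in WT-actin cells, and MMP28 overlaps between all lines.

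Of the matrix metalloproteinases, MMP28, an enzyme of the epidermis also called epilysin, had signals of 1851, 3844 and 1543 in NLS-actin, 2285, 996 and 538 in WT-actin, and 1316, 2322 and 950.4 in parental cells. The lines overlapped, but the NLS-actin array was above the parental array of the same number in all 3 pairs. The log2 fold change in NLS-actin against parental cells was 0.64 with a standard error of 0.49 (adjusted p = 0.863 in limma without the block). It was 0.24 without NLS-actin replicate 2, 0.35 without parental replicate 3 and 0.99 without parental replicate 2, and all 5 probe sets of MMP28 were above 0, from 0.39 to 0.85. With the ACTB ratio as a covariate it was 0.07. Against WT-actin cells the log2 fold change was 1.05 (adjusted p = 0.533), and 1.21 without the 3 arrays that stood apart.

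MMP2, the gelatinase that cuts basement membrane collagen, had signals of 2121, 1617 and 2171 in NLS-actin, 2383, 2000.4 and 2238 in WT-actin, and 1771, 1446 and 1931 in parental cells. WT-actin arrays lay above all parental arrays, with a log2 fold change of 0.37 (adjusted p = 0.746), or 0.19 without the 3 arrays that stood apart. The other MMP2 probe sets were dim, with signals between 0.369 and 15.6, and disagreed. They gave 2.08 and -1.07 in WT-actin and 3.05 and -0.51 in NLS-actin cells, all against parental cells. MMP14, which activates MMP2 at the cell surface, averaged 379.7 ± 61.8 in NLS-actin, 289 ± 134 in WT-actin and 356 ± 72 in parental cells (SD, n = 3 each), and the lines overlapped.

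The interstitial collagenase MMP1 had signals of 405, 1720.4 and 277 in NLS-actin, 605, 178 and 548 in WT-actin, and 661, 884 and 814 in parental cells. NLS-actin replicate 2 alone was above the parental line, and the other NLS-actin arrays were below it. The WT-actin arrays were all below the parental arrays, with a log2 fold change of -1.0 (95 percent interval -2.30 to 0.29, adjusted p = 0.786). In NLS-actin against parental cells it was -0.43 (95 percent interval -1.73 to 0.86, adjusted p = 0.926). Without the 3 arrays that stood apart, the log2 fold change was -1.13 for NLS-actin and -1.23 for WT-actin against parental cells.

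MMP13 had signals of 297, 1238 and 267 in NLS-actin, 677, 171 and 86.1 in WT-actin, and 288, 383 and 215 in parental cells, and the lines overlapped. Its log2 fold change in NLS-actin against WT-actin cells was 1.10, with an interval from -0.41 to 2.61. MMP10 averaged 125 ± 103, 144 ± 78.6 and 119 ± 55.5 in NLS-actin, WT-actin and parental cells (SD, n = 3 each), and its log2 fold changes lay within -0.36 and 0.23 in the 3 comparisons.

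The remaining 3 metalloproteinases, MMP3, MMP7 and MMP9, were dim in HaCaT cells, below the median signal of all probe sets. The matrilysin MMP7 had signals of 8.5, 15.2 and 14.3 in NLS-actin, 6.85, 10.5 and 12.5 in WT-actin, and 32.2, 17 and 27.4 in parental cells. The parental arrays lay above all others, and the median SD within a line was 0.46 on the log2 scale over the 3 dim members and 1.33 over all dim genes, against 0.26 over brighter genes. The log2 fold change against the parental line was -1.01 for NLS-actin (adjusted p = 0.821) and -1.36 for WT-actin (adjusted p = 0.743). MMP3, a stromelysin, spanned 2.59 to 57.2 within WT-actin cells alone, and MMP9, a gelatinase, spanned 16.6 to 40.8 over the 9 arrays.

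By its brightest probe set, no ADAM or ADAMTS protease passed an unadjusted p under 0.05 in any of the 3 comparisons, while other probe sets of ADAM8, ADAM9 and ADAM10 did. ADAM10, a sheddase of Notch and cadherins, averaged 8198 ± 623 in NLS-actin, 8960.4 ± 1626 in WT-actin and 7499 ± 1189 in parental cells (SD, n = 3 each). ADAM17, the sheddase of TNF and EGF receptor ligands, averaged 2138 ± 76.8, 2243 ± 209 and 2014 ± 269 in the same order. The intervals of both genes against the parental line lay within a 2-fold change, from -0.21 to 0.49 for ADAM10 and from -0.22 to 0.41 for ADAM17 in NLS-actin cells. ADAM9, another sheddase, gave -0.05 in NLS-actin and 0.15 in WT-actin cells by its brightest probe set. Another ADAM9 probe set read 62.5 to 69.2 in NLS-actin, 72.2 to 157 in WT-actin and 118 to 135 in parental cells, with no overlap between NLS-actin and parental arrays and a log2 fold change of -0.91 (adjusted p = 0.667 over all probe sets).

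ADAM19 and ADAMTS1 gave log2 fold changes of -0.77 and -0.82 in NLS-actin against WT-actin cells, with intervals from -1.65 to 0.12 and from -2.05 to 0.41. Without the 3 arrays that stood apart these values were -0.23 for ADAM19 and -1.11 for ADAMTS1. With the ACTB ratio as a covariate they were -0.62 for ADAM19 and -0.43 for ADAMTS1. ADAM19 had signals of 5553, 1513 and 5905 in NLS-actin, 5426, 6925 and 6496 in WT-actin, and 4697, 4177 and 6583 in parental cells, so that 1 NLS-actin array lay below all others. ADAM8 and ADAM15 gave -0.17 and 0.12 in NLS-actin against parental cells, and 0.25 and -0.13 in WT-actin against parental cells. Over the 7 genes the median log2 fold change was -0.05 in NLS-actin against parental, 0.25 in WT-actin against parental, and -0.20 between the transfected lines. Probe sets of ADAM10 disagreed, since the dimmest of them gave -0.68 in NLS-actin and -0.57 in WT-actin cells, where the brightest gave 0.14 and 0.25, all against parental cells. A dim probe set of ADAM8 gave -2.89 in NLS-actin against WT-actin cells, where the brightest gave -0.42.

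Of the membrane serine proteases and their inhibitors, SPINT2 was the member that passed an unadjusted p under 0.05. Matriptase (ST14) averaged 2141 ± 37.5 in NLS-actin, 2199.7 ± 198 in WT-actin and 2196 ± 363 in parental cells (SD, n = 3 each), and its intervals against the parental line, -0.35 to 0.31 and -0.32 to 0.34, were among the narrowest. A dim probe set of ST14 differed from it, with log2 fold changes of 2.10 and 2.54 against the parental line, and read 12.4 to 25.7 in NLS-actin, 18.9 to 37.5 in WT-actin and 2.91 to 6.55 in parental cells. SPINT1, the Kunitz inhibitor of matriptase and hepsin, had log2 fold changes of -0.09 and -0.18 against the parental line.

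SPINT2, a related Kunitz inhibitor, had signals of 1255, 1364 and 1211 in NLS-actin, 1594, 1642 and 1725 in WT-actin, and 1731, 1553 and 1291 in parental cells. Every NLS-actin array lay below every WT-actin array, while the parental arrays overlapped both. The log2 fold change in NLS-actin against WT-actin cells was -0.37 (adjusted p = 0.45 in limma). The membrane protease TMPRSS4 and the proprotein convertase FURIN overlapped between all lines. In same-number pairs, TMPRSS4 was higher in NLS-actin than in parental cells in all 3 (1698, 3476 and 1452 against 1294, 2425 and 1006). FURIN was lower in all 3 such pairs. Adjusted p in limma was 0.0658 for TMPRSS4 and 0.39 for FURIN under the block within these lines. Without the block, the log2 fold change of TMPRSS4 was 0.48 (95 percent interval -0.4 to 1.36, adjusted p = 0.877 in limma). With the ACTB ratio as a covariate it was 0.06. With parental replicates 1 and 3 exchanged, TMPRSS4 stayed higher in every pair. FURIN did not stay lower, at 519 on NLS-actin replicate 3 against 393 on parental replicate 1. TMPRSS4 averaged 2209 ± 1105 in NLS-actin, 1385 ± 674 in WT-actin and 1575 ± 750.2 in parental cells, and FURIN averaged 436 ± 72.1, 466 ± 197 and 581 ± 168 (SD, n = 3 each).

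Cathepsins are lysosomal proteases that can also be secreted, and cystatins inhibit many of them. None of these 4 members passed an unadjusted p under 0.05. Cathepsin B (CTSB) averaged 6656 ± 309.8 in NLS-actin, 6927 ± 1400 in WT-actin and 6593 ± 636 in parental cells (SD, n = 3 each). The log2 fold changes of CTSB, CTSD and CST3 (cystatin C) against the parental line lay between -0.10 and 0.06, with every interval inside a 2-fold change. CSTB, which inhibits cathepsins inside the cell, had signals of 3658, 4925 and 3836 in NLS-actin, 3386, 3194 and 3629.6 in WT-actin, and 3212, 3649.5 and 3029.8 in parental cells. Every NLS-actin array was above all others, the lowest of them (3658) close to parental replicate 2 (3649.5) and WT-actin replicate 3 (3629.6). The log2 fold change was 0.32 against the parental line (adjusted p = 0.775 in limma) and 0.27 against WT-actin cells (adjusted p = 0.639). The second CSTB probe set gave 0.38 and 0.39 in these comparisons, and its signals overlapped between all lines.

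In WT-actin cells TIMP3 had the smallest unadjusted p of the members against the parental line (log2 fold change -1.23). In this comparison 0 of 34 members passed an adjusted p under 0.05, against 0.167 percent of all genes. At an unadjusted p under 0.05, 4 members passed, with MMP2 and TIMP2 higher and MMP7 and TIMP3 lower in WT-actin cells, against 6.69 percent of all genes. The cut-offs of the methods took 2 members (MMP7 and TIMP3), against 3.03 percent. Without WT-actin replicate 3 these cut-offs took 4 (MMP7, PLAT, SERPINE2 and TIMP3), against 3.47 percent. The lines did not overlap for 5 members (MMP1, MMP2, MMP7, TIMP2 and TIMP3), against 12.3 percent. The block over all 9 arrays called 0 members, against 0.177 percent. The median log2 fold change was -0.03 over members and -0.06 over all genes.

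In NLS-actin against WT-actin cells, 0 of 34 members passed an adjusted p under 0.05, against 0.728 percent of all genes, and 3 passed an unadjusted p under 0.05 (TIMP3 higher, PLAU and SPINT2 lower), against 9.47 percent. None passed the cut-offs of the methods, against 4.85 percent of all genes, and the lines did not overlap for 4 members (TIMP3, PLAU, SPINT2 and CSTB), against 13.9 percent. The block over all 9 arrays called 0 members, against 0.819 percent. Leaving out WT-actin replicate 1 took 7 members past the cut-offs (ADAMTS1, MMP13, MMP28, PLAU, PLAUR, TIMP3 and TMPRSS4), against 5.95 percent of all genes. Median log2 fold changes were 0 over the members and 0.03 over all genes.

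Counted by probe set, 0 of the 77 of members passed an adjusted p under 0.05 in each comparison, against 0.0769 percent of all probe sets in NLS-actin against parental, 0.103 in WT-actin against parental and 0.364 in NLS-actin against WT-actin cells. At an unadjusted p under 0.05, 8, 7 and 9 of the 77 passed in the same order, against 6.36, 5.98 and 7.85 percent. At the cut-offs of the methods 2, 4 and 4 passed, against 3.6, 3.2 and 4.67 percent.

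How narrowly a change was bounded differed between members. Of the 32 members that missed an unadjusted p of 0.05 in NLS-actin against parental cells, 18 had a 95 percent interval within a 2-fold change. This was so for 16 of 30 in WT-actin against parental cells and for 17 of 31 between the transfected lines. The median SD within a line was 0.32 on the log2 scale over the 31 brighter members, against 0.26 over the 11855 brighter genes.

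**Figure D4:**
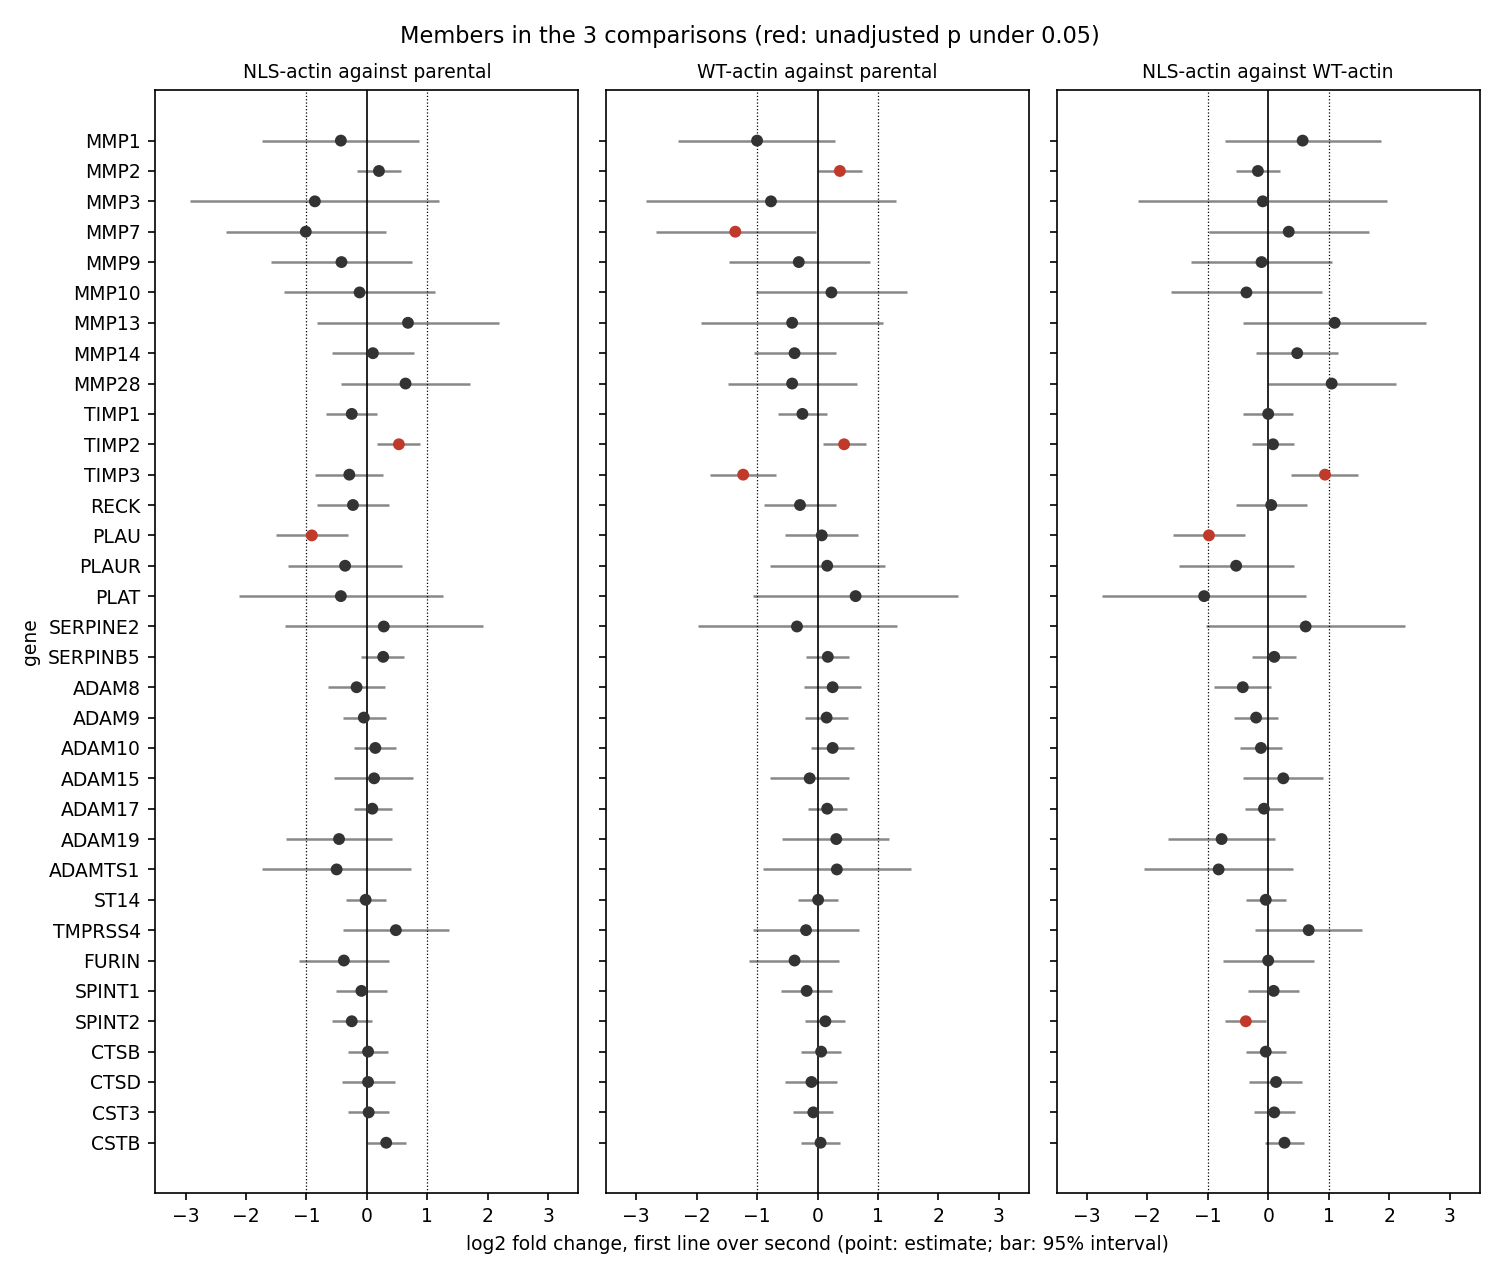
Log2 fold changes of the 34 members in NLS-actin against parental, WT-actin against parental and NLS-actin against WT-actin cells, with points for the estimates, bars for 95 percent intervals of the limma fit and dotted lines at 2-fold changes. Red points mark an unadjusted p under 0.05, which are 2, 4 and 3 members in the 3 comparisons, and none had an adjusted p under 0.05.

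Beside the members, 85 further proteolysis genes were measured, among them more metalloproteinases, kallikreins, cathepsins and serpins. In NLS-actin against parental cells, 1 of them was lower at an adjusted p under 0.05 and 0 were higher, and at an unadjusted p under 0.05 there were 7 higher and 8 lower, against 6.44 percent of all genes in both directions together. In WT-actin against parental cells 0 passed the adjusted threshold in limma, with 8 higher and 10 lower at an unadjusted p under 0.05, against 6.69 percent of all genes. The medians of their log2 fold changes were 0.04 and -0.09. SPOCK1, a proteoglycan of the testican family, had signals of 218, 159 and 235 in NLS-actin, 297, 345 and 409 in WT-actin, and 902, 559 and 811 in parental cells. It was lower in NLS-actin than in parental cells (log2 fold change -1.88, standard error 0.25, adjusted p = 0.0127 in limma) and WT-actin cells stood between the other lines (-1.10 in WT-actin against parental cells, adjusted p = 0.189).

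The transfected lines differed from each other in 4 further genes (HTRA1, CST6, THBD and KLK10) at an adjusted p under 0.05, 3 of them higher and 1 lower in NLS-actin cells, and at an unadjusted p under 0.05 there were 10 higher and 8 lower of the 85, against 9.47 percent of all genes. HTRA1, a secreted serine protease that cleaves matrix proteins, had signals of 862, 1419.6 and 706 in NLS-actin, 238, 124 and 176 in WT-actin, and 354, 371 and 278 in parental cells. The lines did not overlap, and the log2 fold change against WT-actin cells was 2.46 (adjusted p = 0.00245). Against the parental line it was 1.52 in NLS-actin (adjusted p = 0.118, and 0.00041 with the replicate block) and -0.94 in WT-actin cells.

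CST6, a cystatin of the epidermis that inhibits legumain and cathepsins, had signals of 94.2, 41.1 and 105 in NLS-actin, 382, 658 and 1245 in WT-actin, and 261, 129 and 183 in parental cells. The lines did not overlap, and the log2 fold change was -3.2 (adjusted p = 0.00689 in limma) in NLS-actin against WT-actin cells. Set against parental cells it was -1.31 in NLS-actin (adjusted p = 0.581, and 0.0368 with the replicate block) and 1.89 in WT-actin cells (adjusted p = 0.264). THBD, thrombomodulin, averaged 3720.4 ± 261 in NLS-actin, 1831 ± 222 in WT-actin and 3193 ± 489 in parental cells (SD, n = 3 each), and was higher in NLS-actin than in WT-actin cells by 1.03 (adjusted p = 0.00865). KLK10, a kallikrein-related peptidase of the epidermis, averaged 4135 ± 493, 2196 ± 214 and 3438 ± 471 in the same order of lines (log2 fold change 0.91, adjusted p = 0.0164).

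A further 8 genes were named for a fold above 2 with an unadjusted p under 0.05. ADAMTS12 had signals of 1632, 689.8 and 1584 in NLS-actin, 2912, 3022 and 4047 in WT-actin, and 1409, 653 and 1363 in parental cells. WT-actin cells stood above both other lines, with log2 fold changes of 1.61 against the parental line (adjusted p = 0.162) and -1.44 in the comparison of NLS-actin with WT-actin cells (adjusted p = 0.116). PCSK5, a proprotein convertase, averaged 2237 ± 710 in NLS-actin, 1037 ± 195 in WT-actin and 1763 ± 210.4 in parental cells (SD, n = 3 each), with 1.08 in NLS-actin against WT-actin cells (adjusted p = 0.0605). LRP1, which takes up protease and inhibitor complexes, and KLK11 had 1.06 and 2.01 in the same comparison, and SPOCK2 had -1.98, with adjusted p from 0.21 to 0.25. The other 3, MMP25, TMPRSS2 and CST4, were dim.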

How the data were processed

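RNA of 3 HaCaT lines was measured on Affymetrix U133 Plus 2.0 arrays, 3 arrays a line. The authors processed the scans with MAS5 and deposited linear intensity values; the version and scaling target are not given in the sources used here. Control probe sets (62) were left out. Probe sets were named by the array annotation: 41091 had 1 gene symbol, 1801 several and 11721 none listed, and 41037 symbols were updated through Entrez identifiers and 54 kept. The brightest probe set stood for a gene, and dim means below the median signal of all probe sets.

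Values were set on the log2 scale with no offset and fitted with limma 3.58.1 in R 4.3.3, with a mean for each line over all 9 arrays and a variance trend on the signal, with Benjamini-Hochberg adjustment across the 19775 genes. Every probe set was also tested alone. The study's statistics section names Tukey's test without naming the arrays, so it was run as an alternative. Columns of other samples were absent. Promoters and figures used pandas 2.3.3 and matplotlib 3.10.9 under Python 3.11.15.

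Same-number arrays of the NLS-actin and parental lines had residual correlations of 0.242, 0.755 and 0.394 across 11855 genes, which are not independent, and were treated as pairs, although exchanging numbers 1 and 3 gave 0.493 and 0.329. Same-number WT-actin and parental arrays gave -0.124, -0.287 and 0.494 for replicates 1, 2 and 3. For NLS-actin and WT-actin arrays these values were -0.551, -0.331 and 0.207. As a set the WT-actin numbers did not pair with either line, although replicate 3 correlated with parental replicate 3.

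Signals of every array are given for members past an adjusted p of 0.05, or an unadjusted p of 0.05 with no overlap. MMP1, MMP13, PLAT, SERPINE2, ADAM19 and CSTB were added after their values were seen. The NLS-actin and parental signals of TMPRSS4, and some of FURIN, are also given outside these rules. Further genes are named at an adjusted p of 0.05, with up to 8 more at an unadjusted p of 0.05 and a fold above 2. Members and lists were chosen with earlier results of these data known. The fit was tested on simulated data. Alternatives were quantile normalization, an offset of 8.08, a filter on dim probe sets, no variance trend, means of probe sets, omission of cross-hybridizing probe sets, fits of the compared lines only, Tukey's test, replicate blocks, the ACTB ratio as covariate and the omission of arrays.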

Additional observations from a re-analysis of the deposited data

Results flagged for a closer look

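The further proteolysis genes HTRA1, CST6, THBD and KLK10 had differences from the parental line that were not alike in the transfected lines at an adjusted p under 0.05 in limma, which is the comparison of NLS-actin with WT-actin cells. The differences were 2.46 for HTRA1, -3.2 for CST6, 1.03 for THBD and 0.91 for KLK10 on the log2 scale. HTRA1, THBD and KLK10 were above the parental mean in NLS-actin cells and below it in WT-actin cells, and CST6 the reverse. For THBD and KLK10 the NLS-actin side was small, and NLS-actin and parental arrays overlapped. THBD was higher there by 0.23 (adjusted p = 0.851 in limma) and KLK10 by 0.27 (adjusted p = 0.821). WT-actin arrays of both genes lay below all parental arrays, at -0.8 for THBD (adjusted p = 0.0943) and -0.64 for KLK10 (adjusted p = 0.223). Both comparisons of a gene share the 3 parental arrays. None of the 34 members met this criterion.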

How the results depend on the processing

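The 10 results of named members kept their direction in all 205 values under the alternatives, and 0 reversed. Many of these values could not differ from the main fit. The log2 fold change is left unchanged by dropping the variance trend, Tukey's test, the dim filter, the replicate blocks and fits of the compared lines only. The same holds for leaving out an array of the third line. The named members were also chosen by their p values in these same data, so the count of directions is no separate evidence. With quantile normalization or the offset, the median log2 fold change of all genes lay from -0.05 to 0.03 in the 3 comparisons. In the main fit it was -0.01, -0.06 and 0.03. The count of members at an adjusted p under 0.05 was 0 in each comparison, and 0 to 0 when any array was left out. In NLS-actin against parental cells it was 3 with the replicate block within these lines, against 1.91 percent of all genes. It was also 3 with parental replicates 1 and 3 exchanged, against 2.58 percent, a setting chosen after seeing the data. In that setting adjusted p in limma was 0.00803 for PLAU, 0.0321 for TIMP2 and 0.028 for MMP28. A block over all 9 arrays gave 0. In WT-actin against parental cells the ACTB covariate gave 1 (TIMP3), against 0.425 percent of all genes.

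Members were also counted at a fold above 2 with an unadjusted p under 0.05. Percentages in brackets are the shares of all genes past these cut-offs. NLS-actin against parental cells gave 1 without the variance trend (MMP7, 3.58 percent) and 2 with the ACTB covariate (PLAT and SERPINE2, 3.83 percent). Without the 3 arrays that stood apart there were 2 (MMP1 and PLAU, 3.71 percent). Leaving out single arrays gave 0 to 2: 2 without NLS-actin replicate 2 (MMP1 and PLAU, 3.89 percent) and 1 without parental replicate 1 (PLAU, 2.75 percent). WT-actin against parental cells gave 1 (TIMP3) with quantile normalization, the offset, the dim filter, the block over 9 arrays or the ACTB covariate (1.91 to 3.93 percent). The mean of all probe sets gave 2 without TIMP3 (ADAM8 and MMP7, 3.15 percent). There were 3 with these lines only (MMP1, MMP7 and TIMP3, 3.38 percent) and 3 without the 3 arrays that stood apart (MMP1, MMP13 and TIMP3, 3.47 percent). Leaving out single arrays gave 1 to 4, with 4 without WT-actin replicate 3 (MMP7, PLAT, SERPINE2 and TIMP3, 3.47 percent). TIMP3 alone passed without NLS-actin replicate 3, WT-actin replicate 1 or 2, or parental replicate 1 or 3 (2.76 to 3.74 percent). NLS-actin against WT-actin cells gave 1 with the mean of all probe sets (ADAM8, 4.82 percent) and 1 with the block over 9 arrays (MMP28, 4.96 percent). The ACTB covariate gave 2 (PLAT and SERPINE2, 5.09 percent). Without the 3 arrays that stood apart there were 4 (ADAMTS1, MMP13, MMP28 and PLAU, 5.33 percent). Leaving out single arrays gave 0 to 7, the 7 without WT-actin replicate 1 (5.95 percent). The causes were not tested.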
